A study of Mus musculus with 6 samples.

Results

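The genes described here are the axon guidance ligands and receptors that the bead array measured in mouse hindlimb buds. They were chosen by symbol and comprise the Eph receptors and ephrins, the semaphorins of classes 3 to 7, the plexins, the neuropilins Nrp1 and Nrp2, the Slits and Robos, and the netrins with the Unc5 receptors. In all, 67 of 16593 named genes met this choice, with 102 probes, and 48 of the 67 gave enough signal to be tested. Unc50 met it by its letters alone and encodes no netrin receptor. Dcc was also sought, and Dcc, Ephb2, Robo3 and Plxnb2 were among the family genes with no probe under their symbols. The question was whether these genes differ where the hindlimb lacks Pitx1. Hindlimb buds at E12.5 came from matings of mice heterozygous for Pitx1, in the strain labelled SV129. One group was homozygous for the mutant allele (PITX1-/-, called knockout, 3 samples) and the other homozygous for the wild-type allele (PITX1+/+, called wild type, 3 samples). Pitx1 encodes a homeodomain transcription factor of the hindlimb, and the genotype given by the labels applies to the whole embryo, so muscle, cartilage, vessels and nerves of the limb carry it too. Pooling of embryos, the removed part of Pitx1 and the litters of the replicates are not stated in the labels, so p-values refer to the spread between these samples, which may be technical.

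As background, guidance ligands are displayed on cell surfaces or secreted into the matrix, and receptors on growing axons, endothelial cells and migrating cells read them as attraction or repulsion. Slits act through Robos, netrins through Dcc and Unc5 receptors, secreted semaphorins through neuropilins coupled to plexins, and membrane-bound semaphorins mostly through plexins directly. Ephrins are bound to the membrane, those of class A by a lipid anchor and those of class B by a transmembrane segment, and signal to Eph receptors on the cell they touch. In the limb bud, ephrins, Eph receptors and semaphorins sort motor axons into dorsal and ventral paths, and the same families pattern vessels.

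Signals are intensities in arbitrary units after a background subtraction, so some are negative. A probe counted as above background at 14.3 units, and it was tested when it passed that limit on at least 3 of the 6 arrays. Between 13535 and 13559 probes per array did so. Pitx1 gave 78.3, 75.2 and 76.1 units in knockout, against 154.0, 124.5 and 140.2 units in wild type (log2 fold change -0.51 ± 0.09 SE, limma adjusted p = 0.038). Its groups did not overlap, and the call was lost with any single array but knockout replicate 1 left out (adjusted p from 0.063 to 0.30), at an offset of 16 (0.074) and with a floor at the background limit (0.19). Of the 16 limb mesenchyme markers with a probe, 15 were tested and had summed intensities of 13421 to 16196 units in knockout and 15219 to 15462 in wild type. In limma 0 of the 15 passed and 4 (26.7%) had an unadjusted p under 0.05, against 8.51% of all genes. Of the 4, 3 were higher and 1 lower in knockout, with log2 fold changes from -0.51 to 0.29 over the list. Knockout replicate 3 stood apart, at 22.3 on the first principal component (44.2% of the variance), with the other 5 arrays between -8.87 and 1.39. Values without it are therefore given beside several of the results in which it was extreme, though not beside all of them. Across all genes, 26 of 9539 (0.273%) passed an adjusted p of 0.05 in limma with Benjamini-Hochberg adjustment over all probes.

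None of the 48 guidance genes tested passed that threshold. In limma, 6 of the 48 had an unadjusted p under 0.05, where 8.51% of all genes did. All 6 had the lower mean in knockout, a direction in which 4.85% of all genes reached that level, against 3.66% in the other. They were the receptor Ephb1 and the ligands Slit2, Ntng1, Sema6b, Sema3f and Ntn3. The one-sided split depended on the settings. It was 2 higher and 3 lower in knockout under array weights, and 1 and 3 with a floor at the background limit. Without knockout replicate 2 it was 2 and 5, and without knockout replicate 1 it was 1 and 11. All were lower in knockout at an offset of 16 (4 genes), with signal required on all 6 arrays (5) and with averaged probes (3). Of all 13720 probes, 1443 reached that unadjusted p in limma without knockout replicate 1, 1938 without knockout replicate 2 and 1104 in the main fit. The lowest adjusted p was 0.16, shared by Ephb1 and Slit2. Over the 48 genes, log2 fold changes were negative for 29 and positive for 19, with a median of -0.04 and quartiles at -0.14 and 0.07. For all genes the median was 0.00 and the quartiles were -0.09 and 0.08. The fitted 95% intervals of the 48 genes ran from -0.82 at the lowest limit to 0.69 at the highest, so none reached a 2-fold difference on this scale, and 41 of the 48 lay within 0.5 of 0. The scale carries an offset of 50 units, which shrinks the fold change of dim probes. In whole limb buds, fewer cells of a type and less RNA per cell cannot be told apart.

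**Figure D1:**
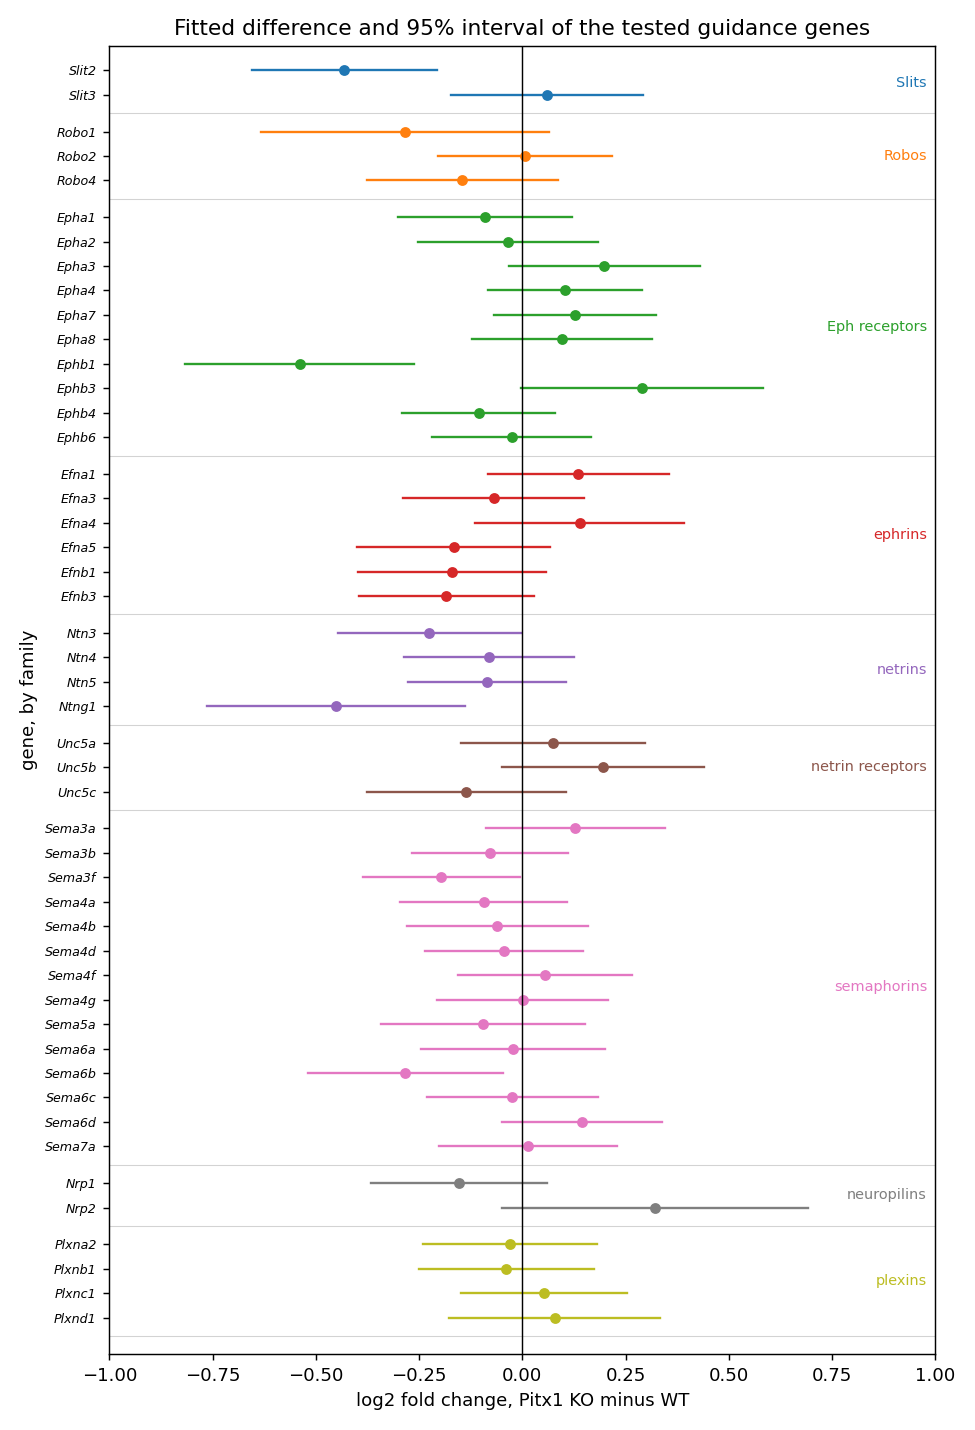
Fitted log2 fold change, knockout minus wild type (horizontal axis), of the 48 guidance genes tested, grouped by family down the page, with points for estimates and lines for 95% intervals from limma (3 knockout and 3 wild-type arrays). Most intervals cross 0, and Ephb1, Ntng1 and Slit2 lie farthest to the left.

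Among the Slits, secreted repellents read by Robo receptors, Slit2 and Slit3 were tested and Slit1 was below background on all 6 arrays. Slit2 gave 151.7, 151.3 and 106.8 units in knockout, against 219.8, 204.6 and 199.9 units in wild type. All 3 knockout samples lay below all 3 wild-type samples, and knockout replicate 3 was the lowest. The log2 fold change was -0.43 ± 0.10 (SE, n = 3 each; adjusted p = 0.16, limma), with a 95% interval from -0.65 to -0.21. Without knockout replicate 3 it was -0.32 (adjusted p = 0.44). Slit3 showed no such separation, with 96.0, 69.9 and 102.8 units in knockout and 89.7, 65.6 and 93.3 units in wild type (log2 fold change 0.06 ± 0.11).

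The Robo receptors overlapped between genotypes. Robo1, a neuronal and mesenchymal Slit receptor, gave 552.0, 515.7 and 299.0 units in knockout and 579.9, 478.7 and 611.9 units in wild type, so that knockout replicate 3 alone lay outside the wild-type range. The fit gave -0.28 ± 0.16 (log2 fold change and SE, adjusted p = 0.68 in limma), and -0.05 without that array. Robo2, also a Slit receptor of axons, was dim, at 12.3 to 30.3 units in knockout and 17.5 to 26.5 in wild type (0.01 ± 0.10). Robo4, the Robo of endothelial cells, had 362.2 to 472.0 units in knockout and 404.6 to 473.5 in wild type (-0.15 ± 0.11). Its second, dim probe gave 0.06. Of the endothelial markers, 14 of the 15 with a probe were tested, and their summed intensity was 6361 to 7665 units in knockout and 7086 to 7458 in wild type. By limma 0 of the 14 passed, with 0 at an unadjusted p under 0.05.

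The Eph receptors, tyrosine kinases that bind ephrins on neighbouring cells, did not move as a family. Among 10 tested, 5 log2 fold changes were positive and 5 negative (median 0.04). Ephb1, a receptor of class B ephrins carried by limb motor axons among other cells, gave 25.2, 42.1 and 5.9 units in knockout, against 83.3, 62.9 and 55.4 units in wild type. The groups did not overlap, and knockout replicate 3 fell below background. The log2 fold change was -0.54 ± 0.13 (SE, n = 3 each; adjusted p = 0.16, limma), with a 95% interval from -0.82 to -0.26. It was -0.40 without knockout replicate 3 (adjusted p = 0.44). Without knockout replicate 2 it was -0.67 and passed (adjusted p = 0.047). Because this probe is dim, the size depended on the background step, with -0.78 at an offset of 16 units and -1.42 when values were floored at the background limit (adjusted p = 0.21 and 0.44).

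The other class B receptors took different signs. Ephb3 gave 92.8, 46.3 and 101.8 units in knockout and 67.3, 44.4 and 42.3 units in wild type (log2 fold change 0.29 ± 0.14 SE, limma adjusted p = 0.62). Knockout replicate 2 lay within the wild-type range. Ephb4, the receptor of venous endothelium, gave 253.0, 238.4 and 252.8 units in knockout, against 265.1, 270.4 and 282.3 units in wild type. These groups did not overlap, yet the log2 fold change was only -0.11 ± 0.09 (adjusted p = 0.77). Ephb6, which lacks kinase activity, gave -0.03 ± 0.09.

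On their brightest probes, Epha3, Epha4 and Epha7, receptors of class A ephrins, lay above wild type without overlap. Epha3 gave 402.6, 325.1 and 282.8 units in knockout and 280.8, 281.6 and 282.6 units in wild type, so knockout replicate 3 was level with the wild-type samples (log2 fold change 0.20 ± 0.11 SE, limma adjusted p = 0.67). Without knockout replicate 1 it was 0.086, and with array weights it was 0.29 (limma adjusted p = 0.41). Epha4, which steers limb motor axons dorsally, was dim, with 22.3, 26.9 and 21.7 units in knockout and 17.3, 14.5 and 19.4 units in wild type (0.10 ± 0.09). With values floored at the background limit Epha4 gave 0.47 (adjusted p = 0.58), Epha7 0.26 and Sema6d 0.24. Epha7 had 84.5, 73.1 and 77.5 units in knockout and 72.9, 56.1 and 68.6 units in wild type (0.13 ± 0.09), and its other 2 probes gave 0.12 and 0.13. The other 2 probes of Epha3 gave 0.05 and 0.09. Genotypes overlapped on all of these other probes of Epha3 and Epha7. Of the rest, Epha1 (-0.09), Epha2 (-0.03) and Epha8 (0.10) overlapped between genotypes, and Epha5, Epha6 and Epha10 were below background on all 6 arrays.

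Across all 48 genes the genotypes failed to overlap for 10 (20.8%), where 13.8% of all genes did. Of the 48 genes, 6 had knockout below wild type, where 698 of all 9539 genes (7.32%) did. Another 4 of the 48 had it above, where 621 of all 9539 (6.51%) did. The 6 were Ephb1, Slit2, Ntng1, Sema3f, Efnb3 and Ephb4, and the 4 were Epha3, Epha4, Epha7 and Sema6d. Each gene is counted by its brightest tested probe, and the other tested probes of Epha3, Epha7, Sema3f and Ntng1 overlapped.

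**Figure D2:**
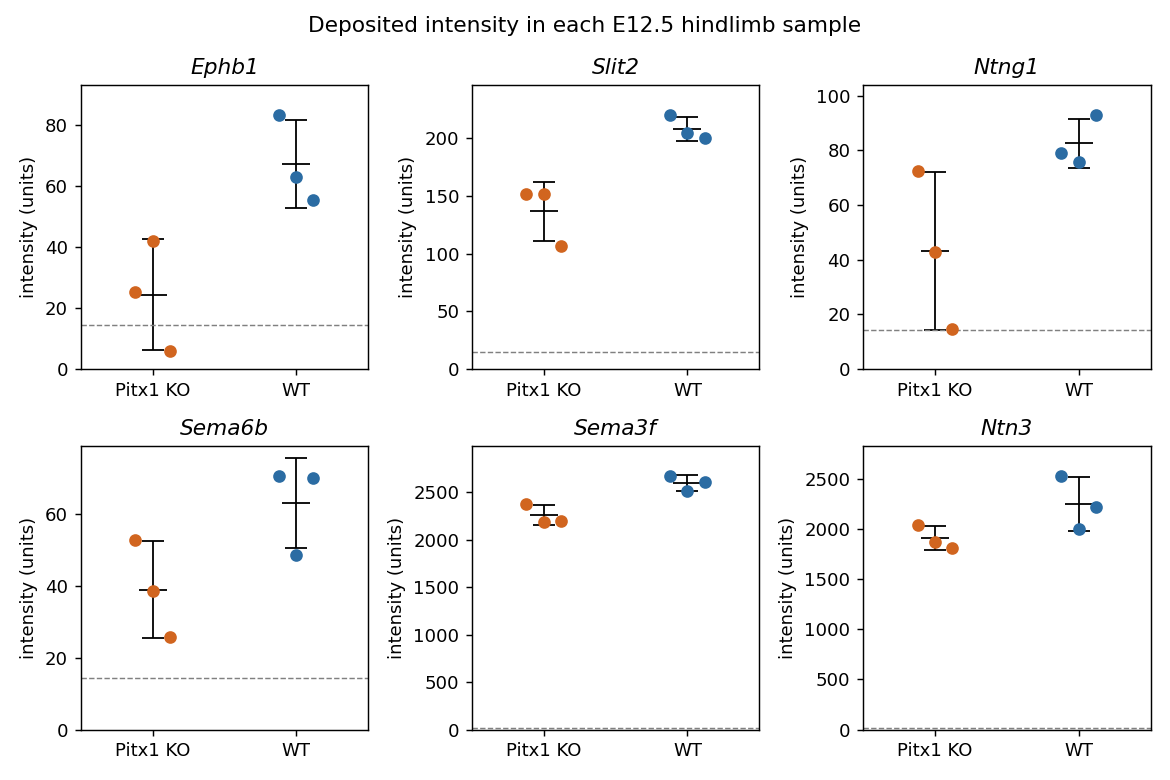
Deposited intensity in arbitrary units (vertical axes from 0) of the 6 guidance genes with an unadjusted limma p under 0.05, in each knockout (left, orange) and wild-type (right, blue) sample, with bars for mean ± SD (n = 3 each) and a dashed line at the background limit of 14.3 units. Knockout replicate 3, the rightmost orange point of each panel, is the lowest of the 3 knockout samples in every gene but Sema3f, and genotypes overlap for Sema6b and Ntn3.

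The upstream sequences of Slit2 and Ephb1, the genes with the smallest p, are shown because the factor removed in knockout binds DNA at a known core, TAATCC. Robo4 (adjusted p = 0.75 in limma) is added as the one guidance gene whose window held those letters. The 250 bases before the annotated start are from RefSeq (GRCm38.p6), read along the gene's strand, with capitals for matches to TAATCC, to the TATA box letters TATAAA or to the CCAAT box letters CCAAT, on either strand. Ephb1 lies on the minus strand at chr9:102354694-102354943, Slit2 on the plus strand at chr5:47982905-47983154 and Robo4 on the plus strand at chr9:37401722-37401971.
Slit2: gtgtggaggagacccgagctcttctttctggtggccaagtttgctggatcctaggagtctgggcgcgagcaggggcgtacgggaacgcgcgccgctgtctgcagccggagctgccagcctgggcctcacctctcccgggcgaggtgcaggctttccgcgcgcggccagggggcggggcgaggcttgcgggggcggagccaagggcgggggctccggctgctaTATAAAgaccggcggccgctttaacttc
Ephb1: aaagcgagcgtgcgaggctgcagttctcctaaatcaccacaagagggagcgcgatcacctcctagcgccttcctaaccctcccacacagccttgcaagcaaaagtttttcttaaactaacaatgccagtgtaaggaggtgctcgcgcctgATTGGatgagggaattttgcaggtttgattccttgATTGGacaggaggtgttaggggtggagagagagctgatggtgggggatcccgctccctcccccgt
Robo4: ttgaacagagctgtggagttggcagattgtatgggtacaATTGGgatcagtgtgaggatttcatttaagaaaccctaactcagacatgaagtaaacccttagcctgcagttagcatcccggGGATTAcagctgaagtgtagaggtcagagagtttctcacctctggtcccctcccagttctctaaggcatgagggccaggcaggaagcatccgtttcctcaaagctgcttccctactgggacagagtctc

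Slit2 held a TATAAA match close to its start and Ephb1 a pair of CCAAT matches on the reverse strand, and neither held TAATCC. Promoter windows (250 bases before to 50 after the start) were found for 58 of the 67 genes, 72 windows in all. Robo4 was the single gene whose window held TAATCC, 1 of 72 windows (1.39%), against 7.06% of the 32851 windows of all genes. TATAAA stood in 2.78% of the guidance windows and 13.6% of all windows, and CCAAT in 30.6% and 37.4%. The upstream stretches shown were 69.6% G and C for Slit2, 54% for Ephb1 and 49.6% for Robo4, where the median over all genes was 52.4%. No matches overlapped in the stretches shown. These are letters in a short window and not sites of binding.

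Ephrins, the ligands of the Eph receptors, showed small differences in both directions. Among 6 tested, 4 log2 fold changes were negative and 2 positive (median -0.12). Efnb3, a transmembrane ephrin, had the smallest p, with 69.9, 56.7 and 68.5 units in knockout, against 72.0, 79.2 and 101.2 units in wild type. The groups did not overlap, although knockout replicate 1 and wild-type replicate 1 were close (log2 fold change -0.18 ± 0.10 SE, adjusted p = 0.66, limma). Without wild-type replicate 3 it was -0.11, and with the floor -0.36. Efnb1, the X-linked ephrin of limb and craniofacial mesenchyme, gave 807.5, 718.2 and 628.3 units in knockout and 825.4, 739.7 and 881.8 units in wild type (-0.17 ± 0.11). Efna5, a lipid-anchored ephrin of limb mesenchyme, was bright, at 1847, 1533 and 1400.3 units in knockout and 1919.9, 1674 and 1770.0 units in wild type (-0.17 ± 0.11), and its dim second probe gave -0.16. Efna1 and Efna4 lay on the other side of 0, at 0.14 each, and Efna3 gave -0.07. Efna4 agreed between its 2 probes (0.14 and 0.11), and both were lowest in knockout replicate 2. Efna2 and Efnb2 were below background on all 6 arrays.

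The 4 netrin genes tested all had negative log2 fold changes (median -0.16). Ntng1 encodes a lipid-anchored netrin-G, which binds a leucine-rich repeat protein and not Dcc. It gave 72.5, 42.8 and 14.5 units in knockout, against 79.1, 75.8 and 92.8 units in wild type. The 3 knockout samples were spread widely, with replicate 1 next to the wild-type samples and replicate 3 at the background limit. The log2 fold change was -0.45 ± 0.15 (SE, n = 3 each; adjusted p = 0.40, limma), -0.26 without knockout replicate 3 (adjusted p = 0.96) and -0.63 without knockout replicate 1, where it passed (adjusted p = 0.044). With values floored at the background limit it was -1.21. The second tested probe of Ntng1 gave 19.2, 8.1 and 24.0 units in knockout and 27.4, 32.5 and 21.1 units in wild type (-0.15), with the genotypes overlapping.

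Ntn3, a secreted netrin, was bright, at 2039.5, 1867 and 1814 units in knockout and 2527, 1996 and 2224 units in wild type. Knockout replicate 1 lay above wild-type replicate 2, so the groups overlapped. The log2 fold change was -0.23 ± 0.10 (SE, adjusted p = 0.62, limma), and its second probe gave -0.12. Without wild-type replicate 1 it was -0.14. Ntn4 and Ntn5 gave -0.08 and -0.09 and were dim, at 10.8 to 29.0 units in knockout and 16.3 to 39.2 in wild type. Ntn1, the netrin of the floor plate, and Ntng2 were not tested, Ntn1 being below background on all 6 arrays and Ntng2 above it on 1.

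Netrin receptors overlapped between genotypes and took both signs. Unc5b, a netrin receptor of vessels and other tissues, gave 259.2, 236.5 and 262.6 units in knockout and 168.8, 213.1 and 260.5 units in wild type. Wild-type replicate 3 lay level with the knockout samples (log2 fold change 0.19 ± 0.11 SE, adjusted p = 0.68, limma). Leaving out wild-type replicate 1 gave 0.076 (limma adjusted p = 0.95), and leaving out replicate 3 of the same genotype gave 0.31 (0.78). Unc5c gave 1271, 1067 and 910.3 units in knockout and 1145, 1175 and 1240.2 units in wild type (-0.14 ± 0.11), so the knockout samples spanned the wild-type range on both sides. Unc5a was near background (0.07 ± 0.10). Unc5d, Unc5cl and Unc50 were below background on all 6 arrays.

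Semaphorins formed the most numerous group, with 14 of 18 genes tested, 9 of them with negative log2 fold changes (median -0.03, and 0.0072 under array weights). Sema3f, a secreted semaphorin that acts through Nrp2, gave 2380.4, 2191 and 2202 units in knockout, against 2669, 2512 and 2609 units in wild type. The groups did not overlap and each was narrow, and the difference was small (log2 fold change -0.20 ± 0.09 SE, adjusted p = 0.62, limma). A second bright probe of Sema3f gave 1493, 1387 and 1387 units in knockout and 1479, 1451 and 1527 units in wild type, with overlap (-0.06). Sema6b, a transmembrane semaphorin that binds class A plexins, gave 52.6, 38.4 and 25.7 units in knockout and 70.4, 48.4 and 70.0 units in wild type. Knockout replicate 1 lay above wild-type replicate 2. The log2 fold change was -0.28 ± 0.11 (adjusted p = 0.53) and the second tested probe gave -0.10. Without knockout replicate 3 it was -0.20, and floored at the background limit it was -0.73.

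Sema6d, another transmembrane semaphorin, lay the other way, with 127.9, 104.1 and 113.6 units in knockout and 102.0, 96.2 and 93.5 units in wild type. Its groups did not overlap (log2 fold change 0.14 ± 0.09 SE, adjusted p = 0.71, limma). Sema3a, the founding secreted repellent that acts through Nrp1, gave 166.2, 219.9 and 179.6 units in knockout and 183.0, 161.2 and 153.4 units in wild type (0.13 ± 0.10). The remaining 10 tested semaphorins (Sema3b, Sema4a, Sema4b, Sema4d, Sema4f, Sema4g, Sema5a, Sema6a, Sema6c and Sema7a) had log2 fold changes from -0.09 to 0.05. Probes of the same gene took opposite signs for Sema3b and Sema6c, and over all the families for 3 of the 16 genes with several tested probes. Sema3c, Sema3d, Sema3e and Sema3g, all secreted, were below background on all 6 arrays.

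The 2 neuropilins, co-receptors of secreted semaphorins, had opposite signs. Nrp2, the partner of Sema3f, gave 44.6, 90.5 and 153.5 units in knockout and 51.6, 61.4 and 61.1 units in wild type. The knockout samples thus ranged from below all wild-type samples to above them, with replicate 3 the highest. The log2 fold change was 0.32 ± 0.17 (SE, adjusted p = 0.67, limma) and 0.08 without knockout replicate 3, but 0.56 without knockout replicate 1 (adjusted p = 0.10). A second probe kept the same order of knockout samples at 45.1, 50.7 and 69.3 units, against 44.8, 47.8 and 50.6 units in wild type (0.08). Nrp1, the partner of Sema3a and also a co-receptor of vascular endothelial growth factor, gave 746.3, 832.5 and 650.5 units in knockout and 832.5, 813.7 and 845.8 units in wild type (-0.15 ± 0.10). Knockout replicate 2 lay among the wild-type samples. The second probe of Nrp1 gave -0.21.

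Plexins, the signalling receptors of semaphorins, differed least. The 4 tested had log2 fold changes from -0.04 to 0.08. Plxnd1, the plexin of endothelium, had the smallest p, with 108.9, 58.2 and 86.7 units in knockout and 63.9, 74.1 and 88.2 units in wild type. The groups overlapped (0.08 ± 0.12 SE, adjusted p = 0.88, limma), and the sign turned without knockout replicate 1 (-0.03). Plxna2 gave -0.03, Plxnb1, a Sema4d receptor, gave -0.04, and Plxnc1, the Sema7a receptor, gave 0.05. Plxna1, Plxna3, Plxna4 and Plxnb3 were below background on all 6 arrays.

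By role, 5 of 26 ligands tested (19.2%) and 1 of 22 receptors (4.55%) had an unadjusted p under 0.05, against the 8.51% of all genes. The median log2 fold change was -0.07 for ligands and -0.01 for receptors. The difference between the roles was not tested. Genotypes failed to overlap for 5 ligands (19.2%) and 5 receptors (22.7%), against 13.8% of all genes. Slit2 was without overlap while Robo1 and Robo2 overlapped. Sema3f was without overlap on its brightest probe and overlapped on its second bright probe, while Nrp2 ranged across the wild-type values.

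Guidance genes outside these families gave no call either. Among 35 tested genes that carry guidance signals inside the cell, 0 passed in limma. At an unadjusted p under 0.05 there were 3 (8.57%), of which 2 were higher and 1 lower in knockout. Dpysl5, a collapsin response mediator, gave 103.1, 102.0 and 119.3 units in knockout, against 157.7, 143.2 and 129.6 units in wild type (log2 fold change -0.26 ± 0.09 SE, adjusted p = 0.47). Mical1, an oxidoreductase that disassembles actin below plexins, gave 0.22 ± 0.10, and Abl1, a tyrosine kinase, gave -0.17 ± 0.10. Averaged over the probes of each gene these were 0.098 and -0.035. Vav2 gave 0.24 ± 0.10 and was above background on 3 knockout arrays and 1 wild-type array, and with a floor at the background limit it gave 0.49. Among 26 other cues and receptors, 0 passed in limma, with 2 (7.69%) at an unadjusted p under 0.05, both lower in knockout.

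Ngfr, the low-affinity neurotrophin receptor of limb mesenchyme, Schwann cells and sensory neurons, gave 247.1, 225.5 and 233.7 units in knockout, against 337.7, 292.1 and 298.7 units in wild type. Its groups did not overlap (log2 fold change -0.31 ± 0.09 SE, adjusted p = 0.33, limma). Sdc3, a heparan sulfate proteoglycan that binds guidance factors, gave 852.6, 762.7 and 612.0 units in knockout and 1075, 830.1 and 992.0 units in wild type (-0.35 ± 0.12, adjusted p = 0.45). Rgma, a repulsive ligand of neogenin, gave -0.24 ± 0.13, and Flrt2, a membrane ligand of Unc5 receptors, gave -0.30 ± 0.16. In both the lowest of the 6 arrays was knockout replicate 3. Without it Sdc3 gave -0.23, Rgma -0.083 and Flrt2 -0.078.

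Markers of other cell types moved with genotype and with knockout replicate 3. The mean log2 level of 19 tested skeletal muscle markers (of 22 with a probe, with Myf5, Pax3 and Pax7 below background) was -0.69, -0.88 and -1.63 in knockout replicates 1, 2 and 3, relative to the wild-type mean, and -0.10 to 0.12 in wild type. Their summed intensity was 2731 to 9189 units in knockout and 16450 to 20464 in wild type. In limma 9 of the 19 passed, all lower in knockout, where 0.273% of all genes passed. The 8 tested cartilage markers lay at -0.22, -0.28 and -0.72 in the knockout samples and at -0.15 to 0.25 in wild type, with sums of 3131 to 5390 units in knockout and 4950 to 7260.3 in wild type. The 11 connective tissue and tendon markers lay at -0.07, -0.21 and -0.50 in knockout and at -0.06 to 0.07 in wild type, with sums of 6697 to 7926 units and 8070 to 8682 units. In limma 1 of the 8 cartilage markers and 1 of the 11 connective tissue and tendon markers passed, both lower in knockout. In all 3 lists, as on the brightest probes of Slit2, Ntng1, Sema6b, Ntn3 and Ephb1, the lowest array was knockout replicate 3. On the second tested probes of Ntng1 and Sema6b it was knockout replicate 2. Knockout replicate 3 was also the lowest for endothelial (-0.18), macrophage (-0.22) and neuron (-0.26) markers. It was not the lowest for Schwann cell precursor, surface ectoderm, erythroid or limb mesenchyme markers. The part of these cell types in the guidance results was not tested.

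The 10 tested erythroid markers lay higher, at 0.29, 0.43 and 0.58 in knockout and -0.11 to 0.08 in wild type, with sums of 138329 to 152598 units in knockout and 121211 to 134098 in wild type. In limma 2 of the 10 passed and 8 had an unadjusted p under 0.05, all higher in knockout, against 0.273% and 8.51% of all genes. Markers of neurons mostly gave too little signal to test, with 11 of 14 below background, Tubb3, Elavl3, Nefl and Snap25 among them. Signal below the limit does not show that a transcript was absent. The 3 tested summed to 126.3 to 219.0 units in knockout and 149.3 to 214.2 in wild type. Of the 8 Schwann cell precursor markers with a probe, 4 were below background, and the other 4 summed to 493.6 to 776.6 units in knockout and 531.3 to 634.7 in wild type. In both lists 0 genes passed in limma, with 0 at an unadjusted p under 0.05.

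**Figure D3:**
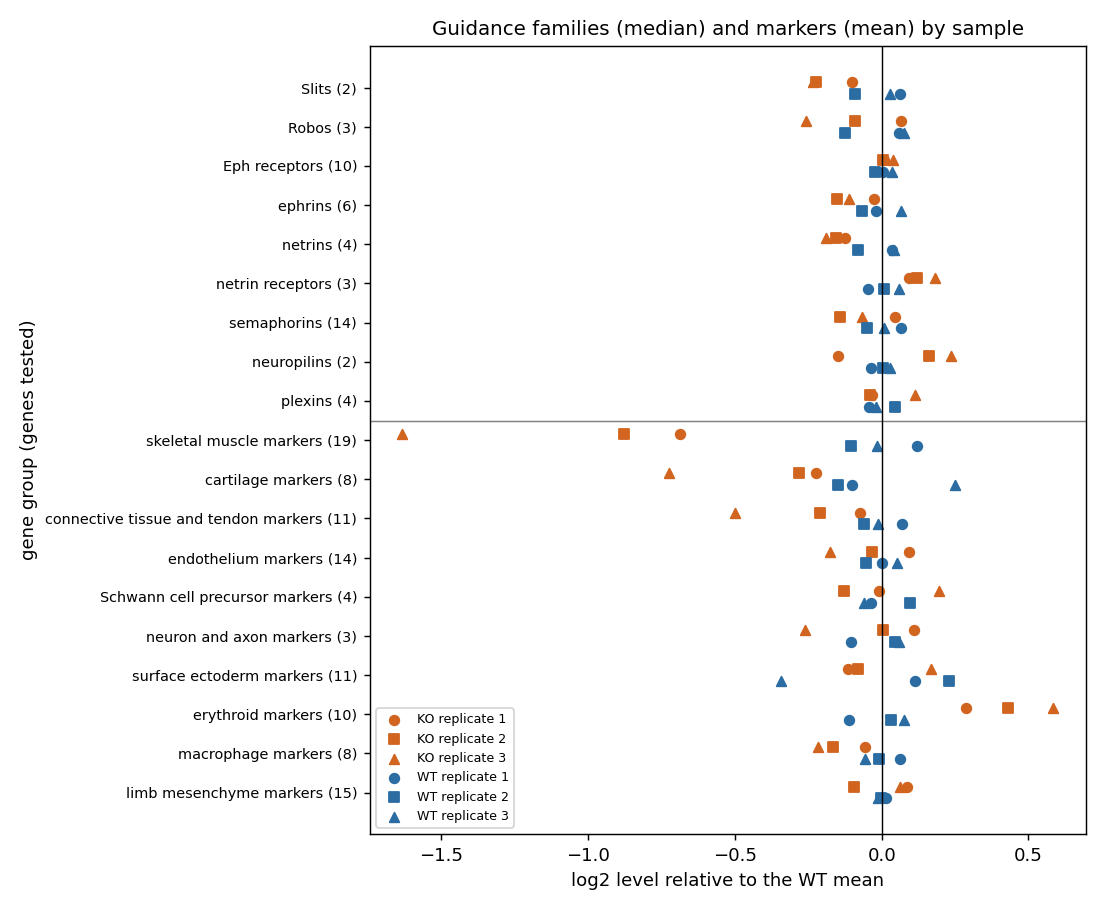
Log2 level relative to the wild-type mean (horizontal axis) in each knockout (orange) and wild-type (blue) sample, as the median over each guidance family (upper rows) and the mean over each cell type marker list (lower rows), with the number of genes tested in brackets and symbols for replicates. The guidance families stay between -0.26 and 0.24, while skeletal muscle markers reach -1.63 in knockout replicate 3.

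The directions of the 6 genes with an unadjusted limma p under 0.05 held in every alternative that could be fitted, and their sizes did not. The 6 were chosen by that p in these same data. Leaving out knockout replicate 3 brought each of the 6 closer to 0. Over all alternatives Slit2 ran from -0.62 to -0.32 and Sema3f from -0.23 to -0.13. Over the same set Ephb1 ran from -1.42 to -0.40 and Ntng1 from -1.21 to -0.26. The count of guidance genes with an unadjusted p under 0.05 in limma was 12 without knockout replicate 1, 7 without knockout replicate 2 and 4 without knockout replicate 3, and it was 4, 5 and 4 without wild-type replicates 1, 2 and 3.

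**Figure D4:**
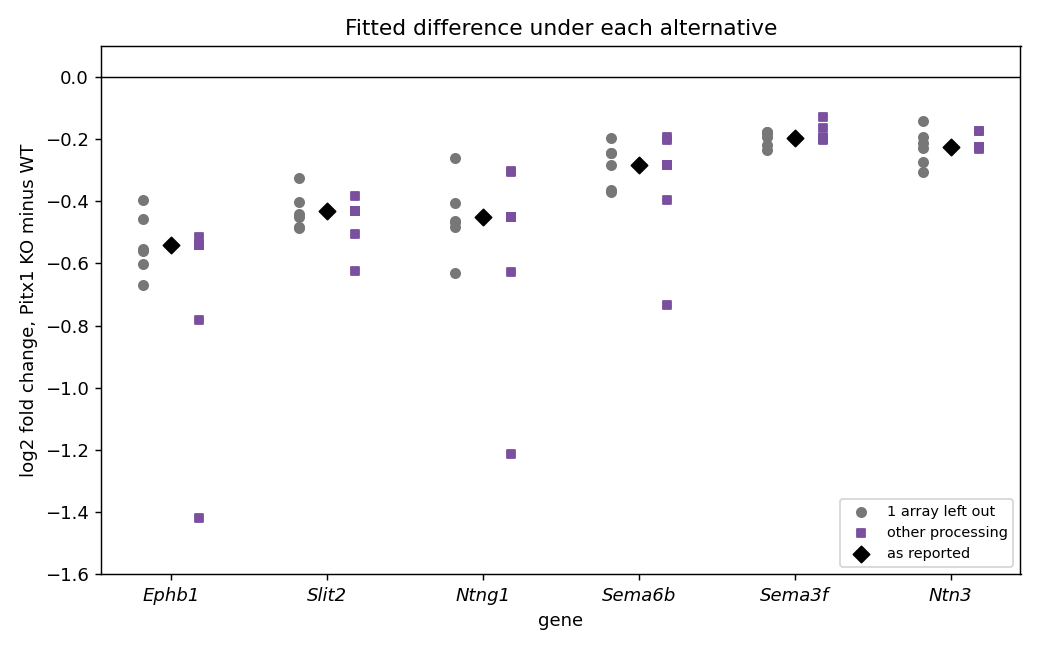
Log2 fold change, knockout minus wild type (vertical axis), of the 6 guidance genes with an unadjusted limma p under 0.05, as reported (diamonds), with 1 array left out (grey circles) and with other processing (purple squares). Every value lies below 0, and Ephb1 and Ntng1 reach lowest, at -1.42 and -1.21.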

How the data were processed

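Total RNA (Trizol, then column clean-up with DNase I) was labelled as biotinylated cRNA and hybridised to Illumina arrays, per the labels' protocols. The deposited table holds linear intensity values, 27.9% of them below 0. Its sorted columns differ by at most 1.09 units, as quantile normalization would leave them. Scanner software and normalization are not given in the sources used here. A second table was not used, since its 12 value columns match no single sample's labels.

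Intensities were corrected with normexp (offset 50) in limma 3.58.1 under R 4.3.3, then put on the log2 scale. Background was 1.64 times the root mean square of the values below 0 (8.71 units), giving 14.3 units. The 13720 probes above it on at least 3 arrays were fitted in limma (lmFit, eBayes, genotype only, two-sided, Benjamini-Hochberg, 9.6 prior degrees of freedom), and each gene took its brightest tested probe. Genes below background on all arrays enter only the alternative that tests every probe. With 3 against 3 samples an exact permutation p cannot go below 0.1, so none was run. The number of arrays limits precision. Of 25697 probes, 23978 have 1 symbol, 0 several and 1719 none in GEO's platform annotation, and 23962 matched GRCm38.p6 by Entrez identifier. Cross-hybridisation was not examined. On simulated data (10 simulations, 13720 probes, knockout against wild type) the fit recovered 66.6% of differences of 0.5 on the log2 scale. It recovered 99.7% of differences of 1, and 5% of its calls were false. These shares describe the simulated data only. The real arrays were uneven, the smallest array weight being 0.50 (knockout replicate 3) and the largest 1.58 (wild-type replicate 2). With 1 real array left out, 0 to 91 probes passed. The share of real differences recovered was not tested.

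The genes, lists and rules were chosen with earlier results of these data known. Genes given sample by sample are those with an unadjusted p under 0.05 and the smallest p of each family. Further genes given sample by sample, including those without overlap between genotypes and others of interest by role, were chosen after their values were seen. From the 2 pathway lists the 4 smallest p-values are named. Marker lists covered 10 cell types, including macrophages (8 tested, sums of 438.5 to 594.0 units in knockout and 580.7 to 693.3 in wild type) and surface ectoderm (11 tested, sums of 10852 to 12389 units in knockout and 8786 to 14367 in wild type). In limma 0 genes of these 2 lists passed. At an unadjusted p under 0.05 there were 2 macrophage markers (25%, both lower in knockout) and 0 ectoderm markers, against 8.51% of all genes. Alternatives were a floor in place of normexp, a smaller offset, a further quantile step, 2 other filters, the replicate number as a block, a trended robust variance, weights per array, averaged probes, and leaving out each array in turn. Plots used matplotlib 3.10.9.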

Additional observations from a re-analysis of the deposited data

How the results depend on the processing

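Of the 239 values of 16 guidance genes under the 15 alternatives, 235 kept their direction and their side of the threshold. The 16 were picked by small limma p-values or lack of overlap in the same data, and none passed in the main fit. The count is therefore a description and no test of stability. With the replicate block (replicate number as a term), 1 guidance gene passed instead of 0, namely Ephb1 (limma adjusted p = 0.033). At an unadjusted p under 0.05 there were 7 guidance genes (2 higher and 5 lower in knockout), and 1282 of 13720 probes against 1104 in the main fit. Among all probes 84 passed instead of 30. The same-numbered arrays' deviations correlated at 0.23, 0.17 and -0.07. Knockout replicates 1 and 2 correlated best with the wild-type array of their own number, and knockout replicate 3 with wild-type replicate 2. The labels do not say whether the numbers pair the samples, and these values do not settle it. With 1 array left out, 0 to 1 guidance genes and 0 to 91 probes passed, and 4 to 12 guidance genes had an unadjusted p under 0.05. Over all genes, 1443 of 13720 probes had such a p in limma without knockout replicate 1, and 1938 without knockout replicate 2. Leaving out wild-type arrays 1, 2 and 3 gave 3, 4 and 0 probes (limma, with 710 at an unadjusted p under 0.05 in the third case), and leaving out knockout arrays 1 and 2 gave 91 and 48. Values floored at the background limit gave 0 probes in limma (951 at an unadjusted p under 0.05), and an offset of 16 gave 8. With the mean over probes, 3 guidance genes had an unadjusted p under 0.05. Plxnd1 turned to -0.033 without knockout replicate 1 and ran up to 0.20 with another array left out. The cause of these changes was not tested.

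Family medians over few genes moved by more than the spread between replicates in several settings. Leaving out arrays gave -0.0070 to 0.068 for Eph receptors, -0.16 to -0.040 for ephrins, -0.22 to -0.11 for netrins and -0.0030 to 0.15 for netrin receptors. The floor gave 0.090 for Eph receptors, -0.28 for netrins and 0.24 for netrin receptors. Testing all probes, which adds the dim genes, gave 0.060 for Slits, 0.060 for Eph receptors and 0.023 for netrin receptors. Requiring signal on all 6 arrays, which drops dim genes such as Ephb1, gave 0.10 for Eph receptors and -0.23 for netrins. Array weights gave 0.0092 for netrin receptors, and turned the sign of the small medians of semaphorins (0.0072), neuropilins (-0.0041) and plexins (-0.0064). With 1 array left out semaphorins ran from -0.078 to -0.0047 and plexins from -0.020 to 0.029. Neither pathway list gave a gene past the threshold in any setting. Signal over background limits what can be said of the 19 genes that were not tested.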
